A study of Caenorhabditis elegans with 2 samples.

Results

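The 211 autosomal distal intergenic peaks of FKH-2 are the strongly scored peak regions that lie far from any protein-coding gene start. They were chosen in 3 steps from the authors' list of 30000 peaks on both replicates pooled. That list is labelled peaks and background, made as input for a reproducibility filter, so a listed peak need not be a bound site. The filtered set has 203 peaks and holds 30 of the members. The 2000 peaks with the highest score were taken, the 1563 of these on the autosomes were kept, and a peak became a member when its centre lay outside every protein-coding gene and more than 2000 bp from every protein-coding transcript start. The score and the position therefore chose the members and are given below as descriptions. The remaining autosomal peaks among the 2000 were 573 promoter peaks within 500 bp of a start, 266 upstream intergenic peaks between these distances, 314 intronic peaks and 199 exonic peaks away from starts. A further 2849 distal intergenic autosomal peaks scored below the 2000 highest and are called weaker distal peaks.

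The study mapped FKH-2 by chromatin immunoprecipitation and sequencing (ChIP-seq) in whole L3 larvae of Caenorhabditis elegans, in 1 group of 2 biological replicates. Both sexes of strain OP185 (unc-119(ed3) III; wgIs185) were pooled, and the target was eGFP-fkh-2, the factor carrying a green fluorescent protein tag from the integrated transgene. No label describes a loss of the endogenous fkh-2 gene. The antibody is labelled fkh-2, and the labels leave unsaid whether it recognises the tag. Whole animals were used, so each peak sums over all cell types, and no untagged strain, second condition or control library was analysed here.

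Forkhead proteins are transcription factors that grip DNA with a winged-helix domain and prefer a core of T, A and C bases built around a run of adenines. FKH-2 is best known in the worm nervous system, where it acts in the shaping of a sensory cilium. Worm genes are closely packed and most of their regulatory DNA lies just upstream of a start, so long intergenic gaps are where enhancers far from a start, noncoding RNA genes and repeats are found.

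The strict forkhead core searched for was ATAAACA or GTAAACA on either strand. The second pattern, GAGAGA on either strand, is a purine repeat of the kind GAGA-binding proteins recognise in flies. Each was sought within 50 bp of the peak centre, a window of 101 bp, and matches of the patterns can share no more than a single base. The sequences shown first are the highest-scoring member and the 4 highest-scoring members with a strict core among those on chromosomes II to V. All are ce11, plus strand, with strict cores (seen as TGTTTAT or TGTTTAC on the other strand) and GAGAGA (or TCTCTC) in capitals. The first is the whole 78-bp peak chrII:12102565-12102642, which holds neither pattern. The others are the centre windows chrII:8787501-8787601, chrII:5046395-5046495, chrIV:14033635-14033735 and chrII:7838795-7838895.
Y17G7B.17 to Y17G7B.18: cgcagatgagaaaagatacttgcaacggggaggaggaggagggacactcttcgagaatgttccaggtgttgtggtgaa
sgn-1 to F07H5.13: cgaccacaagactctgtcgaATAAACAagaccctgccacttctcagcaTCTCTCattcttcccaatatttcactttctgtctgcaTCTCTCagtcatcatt
F33G12.7 to F33G12.6: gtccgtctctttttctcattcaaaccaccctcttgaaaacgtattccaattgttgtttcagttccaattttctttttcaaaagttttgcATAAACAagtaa
cel-mir-52: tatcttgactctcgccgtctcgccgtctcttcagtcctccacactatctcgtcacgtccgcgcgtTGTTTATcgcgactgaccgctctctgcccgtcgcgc
cex-2 to klp-3: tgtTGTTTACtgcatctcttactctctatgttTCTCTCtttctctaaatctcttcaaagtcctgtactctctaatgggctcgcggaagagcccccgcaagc

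The next sequences have GAGAGA or TCTCTC in capitals. The first, shown for the longest run of alternating G and A among members, is the whole peak chrIV:2219520-2219809, which has a run of 28 bp at its edge. The second is the whole peak chrV:14366565-14366854 beside cel-mir-241, shown for its place next to a let-7 family microRNA.
T04C4.3 to fnip-2: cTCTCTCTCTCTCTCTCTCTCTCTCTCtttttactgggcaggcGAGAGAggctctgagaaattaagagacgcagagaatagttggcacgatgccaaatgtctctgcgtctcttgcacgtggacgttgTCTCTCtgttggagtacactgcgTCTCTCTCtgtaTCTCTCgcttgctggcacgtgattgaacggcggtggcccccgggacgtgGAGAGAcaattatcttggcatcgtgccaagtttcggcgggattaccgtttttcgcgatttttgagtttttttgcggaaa
cel-mir-241: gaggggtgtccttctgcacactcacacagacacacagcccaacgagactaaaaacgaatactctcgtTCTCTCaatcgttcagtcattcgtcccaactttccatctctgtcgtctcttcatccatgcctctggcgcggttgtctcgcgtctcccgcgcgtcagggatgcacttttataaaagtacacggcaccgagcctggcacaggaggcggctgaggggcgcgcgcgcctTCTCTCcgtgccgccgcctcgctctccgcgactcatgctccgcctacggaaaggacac

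Distal positions were not where strong peaks were concentrated. Bases that meet the distal rule made up 15.2% of the autosomes (12587378 of 82553665), and 13.5% of the 1563 strong autosomal peaks fell there, as did 12.5% of the 22711 weaker autosomal peaks. Chromosome I held 35 members, II held 37, III held 39, IV held 46 and V held 54, between 11.6% and 15.4% of the strong peaks of each. All but 1 member were 290 bp wide. The median member score was 14.2, between a lowest of 11.6 and a highest of 85.4. The lowest member, chrIII:8173578-8173867, scored 11.5932, and the highest distal peak outside, chrII:8095363-8095652 near ltd-1, scored 11.5895. The member nearest to a start lay 2013 bp from that of madf-1, and the nearest peak just inside the limit lay 2000 bp from that of ceh-48, so neither limit falls at a gap in the data.

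The 211 members sat in 189 separate gaps between protein-coding genes, with a median gap of 8080 bp and a median distance of 3499 bp to the nearest start (2013 to 11731 bp). Genes flanking a member pointed the same way for 129 members (61.1%), away from each other for 67 (31.8%) and towards each other for 15 (7.11%, 95% interval 4.36 to 11.4). That interval counts members singly, although 4 of the 15 share the convergent gap between irld-55 and Y37A1B.7. Among weaker distal peaks the convergent share was 12.9% (11.7 to 14.2), above the members' interval. It was 4.51% (2.60 to 7.72) for strong upstream peaks and 8.55% (6.53 to 11.1) for promoter peaks, and both intervals overlapped the members'. All strong autosomal peaks gave 13.7%. These include intronic (27.7%) and exonic (25.6%) peaks, which lie inside a gene that is not counted as flanking. Promoter peaks were classed by distance alone, so they too can lie inside such a gene. The largest gap was that between M03D4.4 and C11D2.3, at 24510 bp, and its member scored 12.5. A total of 28 members stood in 12 groups in which neighbours lay within 2000 bp of each other, and the other 183 stood alone.

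The highest-scoring member had the highest score of all 30000 pooled peaks. This peak between Y17G7B.17 and Y17G7B.18 scored 85.4 in the pooled list, 50.6 in replicate 1 and 28.0 in replicate 2, and ranked 2 in each replicate. The peak between sgn-1 and F07H5.13 scored 64.7 and ranked 16 in replicate 1 and 1 in replicate 2. These were the members with the best ranks in both replicates.

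Next came 3 members that also ranked within the first 50 of both replicates. The peak between aakg-1, which encodes an AMP-activated kinase gamma subunit, and gldi-8 scored 42.8, with ranks 30 and 48. The peak between F56H11.2 and fbl-1, which encodes the basement membrane protein fibulin, scored 41.2 and ranked 32 in each. The peak between perm-1, an eggshell permeability gene, and ptc-1, which encodes a Patched-type membrane protein, scored 41.1, with ranks 35 and 30.

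Other members were strong in one replicate and modest in the other. The peak between T23E1.1 and Y67D8B.1 ranked 21 in replicate 1 and 1909 in replicate 2. The peak between C54C6.4 and nhr-6, a nuclear hormone receptor gene of the NR4A type, ranked 137 and 6442. In the opposite direction, the peak between asp-13 and ZC190.4, with a pooled score of 15.5, ranked 11400 in replicate 1 and 29 in replicate 2.

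Over all members, 183 (86.7%) overlapped a replicate 1 peak by at least 1 bp and 155 (73.5%) a replicate 2 peak, against 88.5% and 71.3% of all strong autosomal peaks. Both lists matched 130 members (61.6%), replicate 1 alone 53 (25.1%), replicate 2 alone 25 (11.8%) and neither 3 (1.42%), close to the 61.7%, 26.8%, 9.53% and 1.92% of all strong autosomal peaks. The lists run deep, to ranks of 30000 and 24744, so a match alone says little about strength. Among the 2000 highest scores of a replicate, 111 members (52.6%) were found in replicate 1 and 77 (36.5%) in replicate 2, against backgrounds of 48.1% and 28.2%. That level was reached in both by 34 members (16.1%, 11.8 to 21.7), against 11.3% of strong autosomal peaks, and in neither by 57 (27.0%, 21.5 to 33.4), against 35%. The authors' irreproducible discovery rate (IDR) set, which coincides with the highest pooled scores, held 30 members (14.2%, 10.1 to 19.6), against 9.47% of strong autosomal peaks. Upstream and promoter peaks were nearer to the members. They gave 14.7% and 13.1% in both, 32.7% and 30.9% in neither, and 11.3% and 11.2% in the IDR set. All of these intervals overlapped the members'. Exonic peaks gave 1.51% in both and 54.3% in neither. Because the pooled score was made from both replicates, these shares describe the members and test nothing. All intervals are Wilson 95% intervals and reflect only how many peaks were counted, and sequencing depth is unknown.

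**Figure D1:**
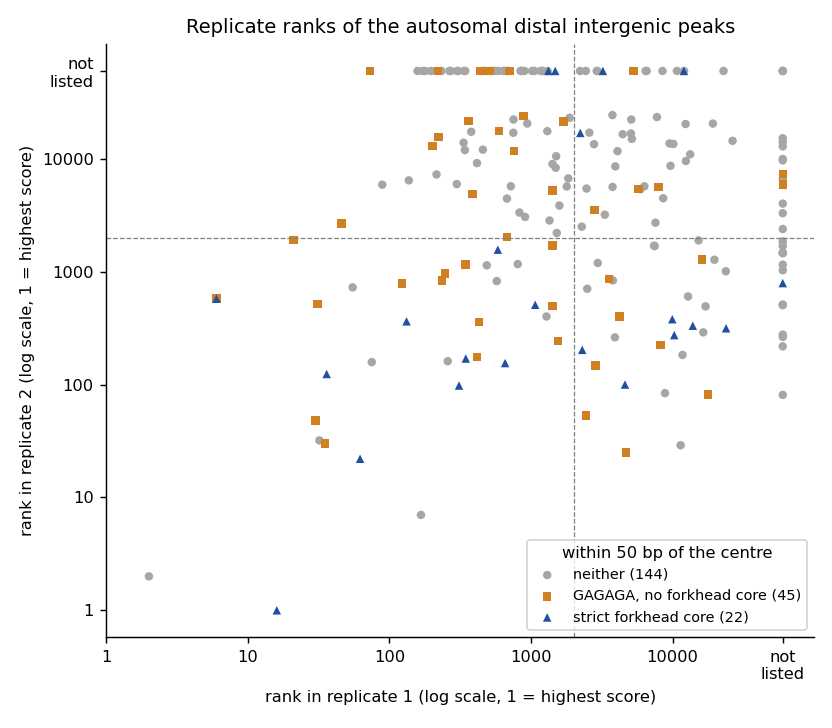
Rank of each of the 211 members in replicate 1 (x axis) and replicate 2 (y axis), both on log scales, with members that a replicate does not list drawn at the margin and dashed lines at rank 2000. Blue triangles mark the 22 members with a strict forkhead core, 17 of which lie below the replicate 2 line and 12 left of the replicate 1 line.

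The strict forkhead core was found within 50 bp of the centre of 22 members (10.4%, 6.99 to 15.3), against 7.36% of all strong autosomal peaks. Within 25 bp of the centre the members' share was 3.79%, so most of these cores lay in the outer part of the window. In windows of 101 bp placed 500 bp away on each side the core was found in 5 members each (2.37%, 1.02 to 5.43). These intervals did not overlap that of the 101-bp window at the centre. Nearer windows gave less contrast, with 6.64% (3.99 to 10.8) at 200 bp on the side of higher coordinates. The windows from 100 to 300 bp on both sides had intervals that overlapped the centre's. So did the window at 400 bp on the side of higher coordinates (4.74%, 2.59 to 8.50). For members chosen from replicate 1 alone the contrast was smaller, with 7.69% (4.92 to 11.8) at the centre and 4.70% (2.64 to 8.22) and 4.27% (2.34 to 7.69) at the flanks, and the intervals overlapped. Weaker distal peaks held it in 108 cases (3.79%, 3.15 to 4.56), the same share as the 124609 windows of 101 bp that tile the distal territory (3.79%), while all autosomal windows gave 3.26%. Strong upstream peaks held it in 9.02%, intronic peaks in 7.96%, promoter peaks in 7.16% and exonic peaks in 1.51% (0.514 to 4.34). The members' interval overlapped those of upstream, promoter and intronic peaks and lay above that of exonic peaks.

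Relaxing the core weakened the contrast. The looser core, a purine, a pyrimidine, a run of 3 adenines, a pyrimidine and an adenine, was found at 43 member centres (20.4%, 15.5 to 26.3), against 19.7% of strong autosomal peaks and 17.4% of distal windows. The flanks held it in 12.3% and 19.4%, and the centre interval overlapped both.

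**Figure D2:**
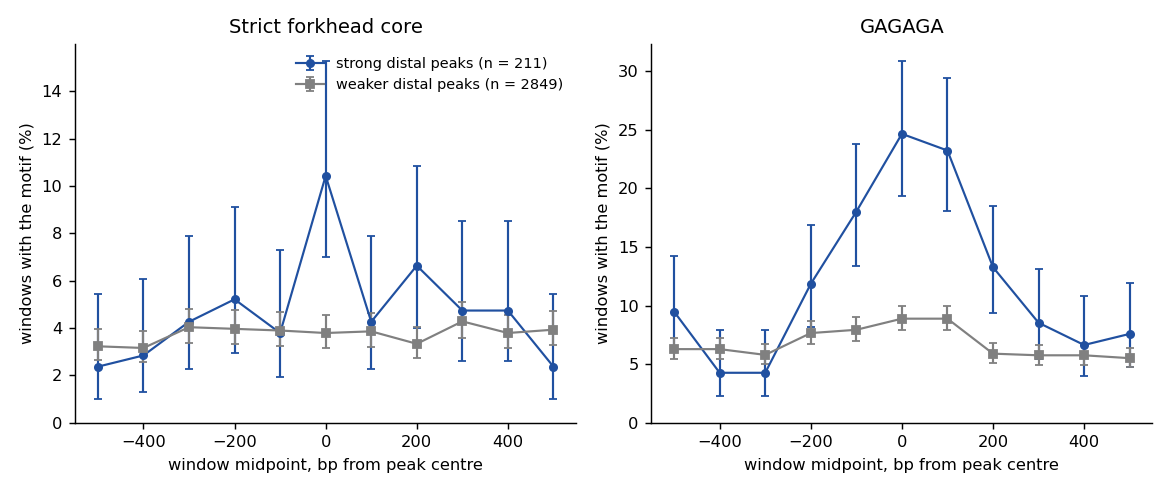
Share of 101-bp windows with the strict forkhead core (left) and GAGAGA (right) by distance of the window midpoint from the peak centre, for the 211 strong and 2849 weaker distal peaks, with Wilson 95% intervals. The core share of the strong peaks is 10.4% at the centre and between 2.37% and 6.64% elsewhere, while the GAGAGA share stays raised over the neighbouring windows.

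Members with a strict core were placed differently in the replicates. Of the 22, 17 (77.3%, 56.6 to 89.9) were among the 2000 highest scores of replicate 2, against 60 of the 189 without a core (31.7%, 25.5 to 38.7). In replicate 1 the shares were 12 of 22 (54.5%, 34.7 to 73.1) and 99 of 189 (52.4%, 45.3 to 59.4). Median ranks of the listed members followed the same split, 294.5 with and 3197 without a core in replicate 2, and 1326 and 1203.5 in replicate 1. The 30 members of the IDR set held a core in 8 cases (26.7%, 14.2 to 44.4), and the other 181 in 14 (7.73%, 4.66 to 12.6).

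Several core members were far stronger in replicate 2. The peak between cox-6C and daf-1, a type I receptor gene of the TGF-beta dauer pathway, ranked 23865 in replicate 1 and 315 in replicate 2. The peak between C26C6.9 and goa-1, which encodes a Go alpha subunit, ranked 13887 and 332. The peak between F36G9.3 and the chemoreceptor gene sri-2 ranked 4610 and 100. The reverse was also seen, since 4 of the 22 were listed by replicate 1 alone and 1 by replicate 2 alone.

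GAGAGA was the commoner pattern. It was found at 52 member centres (24.6%, 19.3 to 30.9), against 20.1% of strong autosomal peaks, and in 20 (9.48%, 6.22 to 14.2) and 16 (7.58%, 4.72 to 11.96) of the flanks, whose intervals lay below that of the centres. Weaker distal peaks held it in 8.88% (7.89 to 9.98) and distal windows in 5.57%. Upstream peaks held it in 27.8%, intronic peaks in 20.4%, promoter peaks in 19.4% and exonic peaks in 6.53% (3.86 to 10.9). The members' interval overlapped those of the first 3 of these classes and lay above those of exonic and weaker distal peaks. A strict core and GAGAGA were both present in 7 members.

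Among members that a replicate lists, those with GAGAGA ranked higher in both replicates than those without it. In replicate 1 the median rank was 634 with GAGAGA (50 listed) and 1419 without it (133 listed). In replicate 2 it was 849 with GAGAGA (44 listed) and 3197 without GAGAGA (111 listed). The IDR members held GAGAGA in 15 of 30 cases (50%, 33.2 to 66.8) and the others in 37 of 181 (20.4%, 15.2 to 26.9). An unbroken run of alternating G and A of at least 12 bp occurred in 7 members (3.32%), against 3.9% of strong autosomal peaks. The longest, 28 bp in the peak between T04C4.3 and fnip-2, belonged to a member that ranked 202 in replicate 1 and 13043 in replicate 2. The peak between chd-7, a chromatin remodeller gene, and W09C3.4 had a run of 17 bp and ranked 362 and 21526. The peak between Y17D7C.2 and asp-19, an aspartyl protease gene, had a run of 15 bp and ranked 414 and 176.

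**Figure D3:**
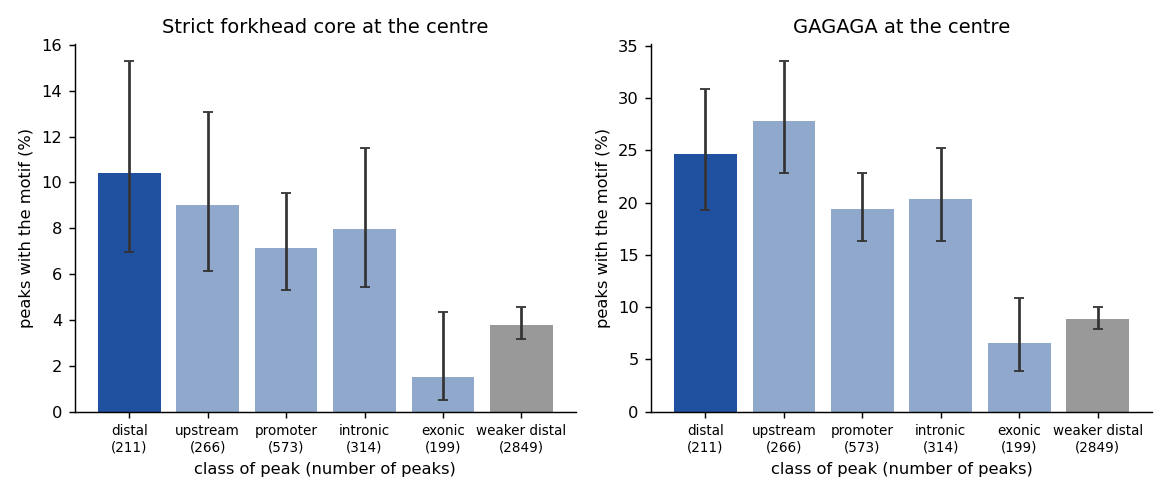
Share of peaks with the strict forkhead core (left) and GAGAGA (right) within 50 bp of the centre, by class of strong autosomal peak and for the weaker distal peaks, with Wilson 95% intervals and numbers of peaks in brackets. Distal peaks stand at 10.4% and 24.6%, exonic peaks at 1.51% and 6.53%.

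Related six-base words were also more frequent at the centres. AAGAGA was found in 64 members, against 16 and 19 at the flanks. CGTCTC, whose other strand reads GAGACG, was found in 35, against 4 and 5. Words of A and T were rarer, with AAAATT in 49 centres against 103 and 100 flanks. These words were the extremes of all six-base words and were picked for their counts.

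Member centres were richer in G and C than their surroundings. The median GC content was 40.6% at the centre and 34.7% and 33.7% at the flanks, with 33.7% in distal windows, 36.6% at weaker distal peaks and 41.6% at all strong autosomal peaks. The IDR members had a median of 46.0%, and 11 of the 211 members (5.21%) reached 55%, against 5.76% of strong autosomal peaks. Whether base composition accounts for the GAGAGA or core shares was not tested.

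**Figure D4:**
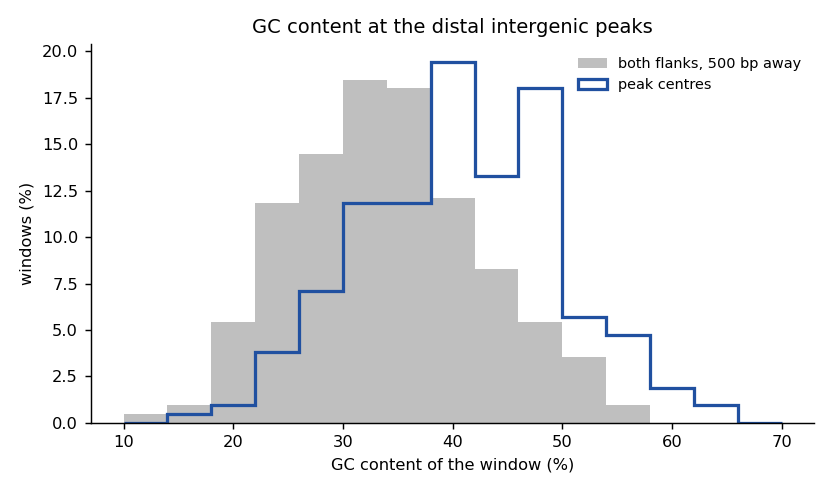
Distribution of GC content over 101-bp windows at the 211 member centres (blue line) and at both flanks 500 bp away (grey), as a share of windows. The centres have a median of 40.6% and the flanks of 34.7% and 33.7%.

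Members held less masked sequence than weaker distal peaks and about as much as strong autosomal peaks in all. The reference marks sequence as repetitive or low in complexity over a median of 21.7% of a member and 29.7% of a weaker distal peak, and over more than 50% of the length of 21 members (9.95%, 6.60 to 14.7) against 18.8% of weaker distal peaks (17.4 to 20.3) and 10.7% of strong autosomal peaks. A copy at 90% identity over at least 80% of the peak existed for 1 member (0.474%), against 0.384% of strong autosomal peaks and 1.51% of weaker distal peaks. That member lay between srbc-2, a chemoreceptor gene, and T20D4.15. With both limits relaxed, to 80% identity over 50% of the length, 8 members had a copy, led by the peak between R06C1.4 and R06C1.6 with 856 places. A pseudogene lay within 200 bp of 10 members (4.74%, 2.59 to 8.50). That share was below the 13.4% of weaker distal peaks (12.2 to 14.7) and above the 1.41% of all strong autosomal peaks (0.931 to 2.12). Strong upstream peaks, which are also intergenic, gave 3.01% (1.53 to 5.82), an interval that overlapped the members'.

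Small structured RNA genes were rare neighbours. A tRNA, snRNA or snoRNA gene lay within 200 bp of 8 members (3.79%, 1.93 to 7.30), against 3.9% of strong autosomal peaks and 1.12% of weaker distal peaks (0.797 to 1.58). Members chosen from replicate 1 or replicate 2 alone gave 1.71% and 1.59%, much nearer to the weaker peaks. The genes beside the 8 members were 3 tRNA and 5 snoRNA genes, which serve translation and RNA modification, and none was an snRNA gene. None of the 8 belonged to the IDR set. The highest-scoring of them, between pamn-1 and lim-7 beside the snoRNA gene T19B4.8, scored 16.0 and ranked 19261 and 20500. The next, beside a tRNA gene between snf-7 and the cuticle collagen gene col-98, held both a strict core and GAGAGA and ranked 2300 and 203. Genes annotated only as ncRNA lay within 200 bp of 28 members (13.3%, 9.34 to 18.5), against 10.5% of all strong autosomal peaks, 14.7% of upstream peaks and 7.97% of weaker distal peaks (7.03 to 9.02). Long intergenic RNA genes lay within 200 bp of 5 members (2.37%, 1.02 to 5.43), against 0.768% of strong autosomal peaks and 1.16% of weaker distal peaks.

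MicroRNA genes were the neighbours of some of the strongest members. A microRNA gene lay within 2000 bp of 11 members (5.21%, 2.94 to 9.09), against 1.86% of strong autosomal peaks and 1.58% of weaker distal peaks (1.18 to 2.11). Intronic peaks gave 2.87% (1.52 to 5.36), an interval that overlapped the members', and upstream and promoter peaks gave 0.752% and 1.05%. The 11 members are not separate observations, since 4 lie around cel-mir-52 and 3 lie upstream of cel-mir-241. The interval counts each of them singly and is therefore too narrow. This share was not recomputed for members chosen from 1 replicate. The others lay 1 each near cel-mir-80, cel-mir-2218b, cel-mir-8189 and cel-mir-2215.

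The gap between irld-55 and Y37A1B.7 holds cel-mir-52, a member of the mir-51 family of abundant microRNAs. Its 4 members had centres 1014, 323 and 115 bp upstream of the 5′ end of the microRNA gene and 573 bp downstream, and scored 26.6, 38.9, 24.98 and 11.8. Replicate 1 had its highest peak there 286 bp upstream, with a score of 37.1 and rank 6. Replicate 2 had its highest peak 992 bp upstream, with a score of 14.5 and rank 53, so the replicates had their highest scores at different members. The middle members overlap each other and share the same best replicate peaks, and the strict core in the sequence named cel-mir-52 above belongs to the one 323 bp upstream. Genes annotated as ncRNA overlap this stretch.

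The gap between Y49A3A.4 and unc-39 holds cel-mir-241 and, 1774 bp further along the same strand, cel-mir-48. Both are let-7 family microRNAs known for setting the pace of larval cell fates. Members lay 427, 1500 and 1993 bp upstream of cel-mir-241 and scored 29.1, 14.1 and 16.0. The nearest ranked 55 in replicate 1 and 726 in replicate 2. The middle one was not listed in replicate 1 and ranked 218 in replicate 2, and the farthest ranked 674 and 2021. The other pooled peaks within the plotted stretch scored below the member threshold. The peak near cel-mir-80, a mir-58 family microRNA, lay 30 bp from the gene, scored 12.3, ranked 693 in replicate 1 and was not listed in replicate 2.

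**Figure D5:**
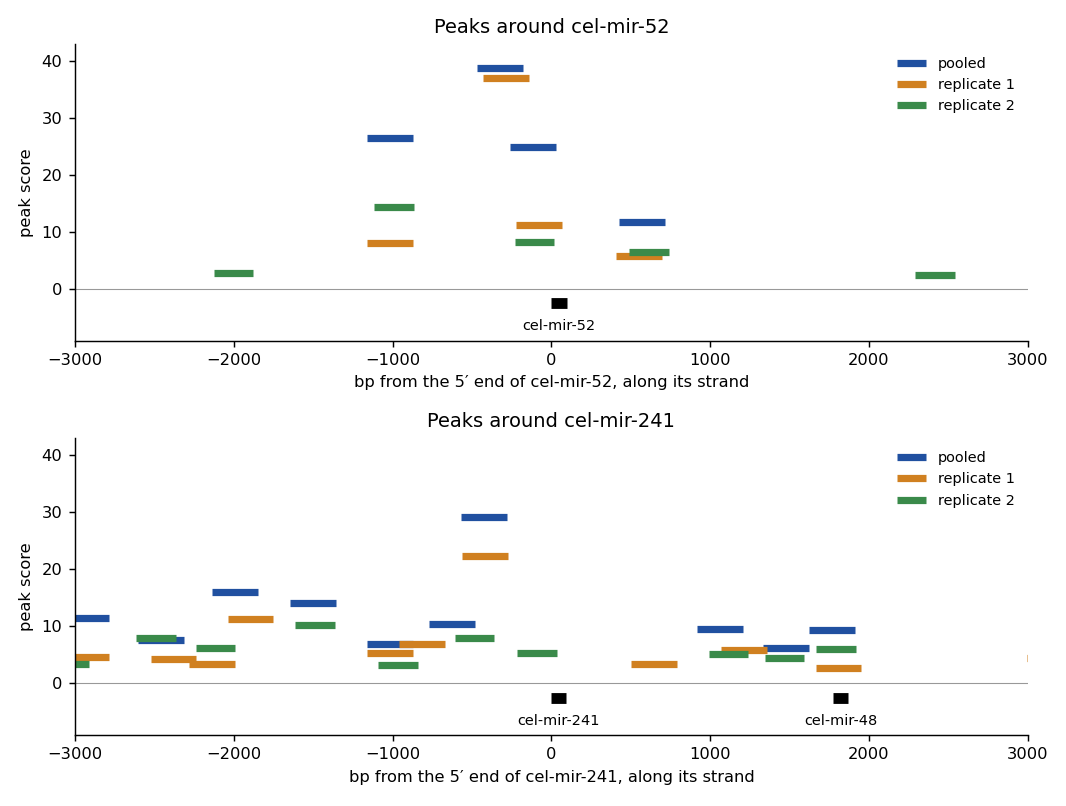
Scores of pooled, replicate 1 and replicate 2 peaks by distance in bp from the 5′ end of cel-mir-52 (top) and cel-mir-241 (bottom), along the strand of each gene, with each bar spanning a peak and black boxes marking microRNA genes. The highest pooled scores are 38.9 and 29.1, both upstream, and the replicates reach their highest scores at different distances.

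Different leading members in the replicates were usual among the groups of neighbouring members. Of the 12 groups, 11 had a member listed in each replicate, and in 9 of these the best-ranked member of replicate 1 was not that of replicate 2. In some of the groups a replicate lists a single member. No such count was made for other classes of strong peak, so these counts describe the groups and cannot be called particular to distal peaks. In the gap between npr-43, a neuropeptide receptor gene, and C15H11.10, members with pooled scores of 14.6 and 16.6 ranked 343 and 220 in replicate 1 and were not listed in replicate 2. A neighbour in that gap, with a score of 15.7, was not listed in replicate 1 and ranked 264 in replicate 2. In the gap between F54F12.1 and Y39E4B.6, a member with a score of 32.4 ranked 46 and 2674, and its neighbour with a score of 40.6 ranked 167 and 7.

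The 374 protein-coding genes flanking members were counted by family from their symbols. Homeobox genes made up 7 of them (1.87%, 0.910 to 3.81), against 28 of the 2758 genes flanking weaker distal peaks (1.02%, 0.703 to 1.46) and 69 of 17138 autosomal genes (0.403%, 0.318 to 0.509). Weaker distal peaks share the rule on position and are the nearer comparison, and those intervals overlapped. The 7 were unc-39, a Six-type gene, lim-7, a LIM homeobox gene, the Hox genes ceh-13, lin-39 and egl-5, and the neural fate genes zag-1 and unc-42. In the Hox region, 3 members lay in gaps beside ceh-13 or lin-39, with scores of 14.6, 13.6 and 12.2. The first of these ranked 594 in replicate 1 and 17616 in replicate 2. The second ranked 640 in replicate 1 and was not listed in replicate 2. The last was listed by replicate 1 at rank 6448 and not by replicate 2. The member beside egl-5 ranked 23757 and 1008.

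Neuropeptide receptor genes were 8 of the 374 (2.14%, 1.09 to 4.16), against 1.38% beside weaker distal peaks (1.01 to 1.89), and nuclear hormone receptor genes were 8 (2.14%), against 2.21%. The highest-scoring neuropeptide receptor neighbour was npr-15, whose peak scored 22.5 and ranked 8196 and 225. Genes of the TGF-beta dauer pathway, a signal that governs entry into the dauer stage, were 3 (0.802%, 0.273 to 2.33), against 4 of 2758 (0.145%, 0.0564 to 0.372). They were the type II receptor gene daf-4, whose peak scored 20.1 and ranked 258 and 161, the receptor gene daf-1 and the SMAD gene daf-8. The intervals overlapped. This pathway was listed gene by gene, with only 6 autosomal genes, and was not among the families planned. Chemoreceptor genes were 11 (2.94%, 1.65 to 5.19), against 6.31% beside weaker distal peaks (5.46 to 7.28) and 7.39% of autosomal genes. Heterochronic, insulin-like and core histone genes flanked no member, but made up only 0.0725%, 0.254% and 0.0363% of genes beside weaker distal peaks, too few to read a difference from. Flanking says only that no other protein-coding gene lies between, and no expression was measured here.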

How the data were processed

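ChIP-seq peaks of 1 group, 2 biological replicates of L3 larvae, were analysed from the ce11 lists: replicate 1 (30000 peaks), replicate 2 (24744), both pooled (30000) and an IDR set of 203. All lists but the IDR set are labelled peaks and background, made as input for IDR. Each deposited peak carries a score, the authors' signal value, whose scale is not given in the sources used here, and a −log10 q-value, also the authors' own. Scores served to order peaks inside 1 list, and −log10 q-values were deposited but chose nothing. Lists were made from alignments with a control, per the deposited text files. The aligner, the peak caller and the IDR threshold are not given in the sources used here. The ce10 lists were not used.

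The deposited peak point was taken as the peak centre. Genes came from Ensembl release 115 and sequence from the matching RefSeq genome (ce11), in which lower-case letters gave the masked share. Copies were sought with blastn 2.17.0 at an E-value of 1e-05. A replicate match was the best-ranked peak overlapping by at least 1 bp. Motif windows of 101 bp were compared with equal windows 500 bp away and with windows tiling the genome. Counts and medians were computed with Python 3.11.15, pandas 2.3.3 and statsmodels 0.14.6, and scans were tested on simulated data. No significance test was run. The members, gene lists and motifs were chosen with earlier results of these data known. Named regions were the 15 highest scores and the 5 leading by core, GA run, small RNA gene, copies, worse replicate rank and gap length, and family genes up to 4 each by score. The microRNA and clustered regions, the six-base words, and single peaks named for unequal replicate ranks were picked with their values in view. Alternatives varied the list, the threshold, the distance, the window and the overlap.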

Additional observations from a re-analysis of the deposited data

How the results depend on the processing

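Of 102 alternative values, 67 stayed within the error of the reported one and 35 moved, and for those that moved the cause was not tested except where the setting itself widens or narrows what is counted. The members numbered 113 from the 1000 highest scores, 362 at over 1000 bp and 126 at over 3000 bp from a start. The strict core share was 26.7% in the IDR set, an alternative added after seeing the data, and 3.79% within 25 bp. The GAGAGA share was 36.3% for the 1000 highest scores, 50% in the IDR set, 15.2% within 25 bp, 40.8% within 100 bp and 47.9% over whole peaks, and 17.9% to 25.2% from 1 replicate alone. Median GC was 46.0% in the IDR set and 38.6% to 41.6% from 1 replicate alone. The share beside small RNA genes was 0% in the IDR set, 0.948% at 0 bp and 1.59% to 1.71% from 1 replicate alone. The copy share was 0% for the 1000 highest scores and 0% in the IDR set. The replicate 1 match was 92.9% for the 1000 highest scores, 100% in the IDR set, 80.6% where 50% of the peak had to overlap and 52.6% among that replicate's 2000 highest scores, and the replicate 2 match was 84.1%, 100%, 63.0% and 36.5%. Members chosen from replicate 2 alone matched replicate 1 in 34.1%, and those chosen from replicate 1 alone matched replicate 2 in 38.0%. The IDR share was 26.5% for the 1000 highest scores. Tandem gene pairs flanked 50% of IDR members. Leaving out replicate 2 gave 234 members, 47.4% of them overlapping a reported member, and leaving out replicate 1 gave 252, 29.4% overlapping. The strict core share was then 7.69% and 9.13%, with flanks of 4.70% and 4.27%, whose intervals overlapped the centre's, and of 2.38% and 2.78%, whose intervals did not. No paired analysis was possible because the series has 1 group. Depth is unknown, so absence from a replicate list does not show absence of signal.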
